A study of Mus musculus with 42 samples.

Results

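The genes described here encode the nuclear part of the mitochondrial respiratory chain and ATP synthase, with the Nduf and Uqcc assembly factors. They were taken by symbol: every gene of the RPKM table off chromosome 6 that begins with Nduf, Uqcr, Uqcc, Cox4 to Cox8 or Atp5, or is Sdha, Sdhb, Sdhc, Sdhd or Cyc1, and that averaged at least 1 RPKM (reads scaled to transcript length and to library size) over 42 libraries. A total of 96 genes had such a symbol. Of these, 4 lay on chromosome 6 (Ndufa4, Ndufa5, Ndufa9 and Ndufb2) and 4 averaged under 1 RPKM, which left 88 of the 24225 genes in the table. The genes just under the minimum were Cox7b2 at 0.85 RPKM and Cox6a2 at 0.78 RPKM, and the genes just over it were Atp5g2 at 1.31 RPKM and Cox4i2 at 1.64 RPKM. The 88 genes lie on 18 chromosomes, 3 of them on the X chromosome. They comprise 33 subunits of complex I, 4 of complex II, 9 of complex III, 14 of complex IV, 15 of complex V, and 13 assembly factors and relatives of subunits.

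In the respiratory chain, complexes I and II pass electrons from NADH and succinate to ubiquinone, complex III passes them on to cytochrome c, and complex IV reduces oxygen. Complexes I, III and IV pump protons across the inner mitochondrial membrane, and complex V (ATP synthase) uses the gradient to make ATP. Most subunits are encoded in the nucleus and assemble around a few mitochondrially encoded ones with the help of dedicated assembly factors. Pluripotent cells rely strongly on glycolysis, and respiration generally gains weight as they differentiate, so the chain is often followed in embryoid bodies.

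The study followed mouse embryonic stem cells (ESC) as they formed embryoid bodies, aggregates that differentiate after leukaemia inhibitory factor is withdrawn. There were 2 wild-type (WT) lines, W1 and W2, and 2 double-knockout (DKO) lines, K1 and K3, without either catalytic subunit of AMPK, the energy-sensing kinase encoded by Prkaa1 and Prkaa2. All lines were C57Bl/6-derived and were sampled as ESC (day 0) or as embryoid bodies aged 2, 4, 8 and 12 days. The medium held 25 mM glucose (high glucose, HG) or 2.5 mM (low glucose, LG). All ESC had been grown on irradiated DR4 feeders and then passaged without them. Each genotype is thus modelled by 2 lines, and by 1 line in some of the late groups used below. The replicates are these lines. The p-values measure only a spread between lines that is pooled over all groups.

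The labels of 18 of the 42 libraries conflicted with the data. In 15 libraries the line-specific expression of Ddx3y and Meg3, and in 8 that of Txnip, a transcript induced by glucose, went against the heading, 5 libraries having both conflicts. The 24 other libraries (13 WT and 11 DKO) are called label-matched and carry the results below. Counts from all 42 libraries as labelled are given too, but as-labelled values of single genes only for some. Of 67 pairs of a named gene and a comparison, 7 changed direction as labelled, and these are listed near the end. No library was moved to another group. Prkaa2, the targeted gene, lay between 1.32 and 22.3 RPKM in label-matched WT and between 0.019 and 0.959 RPKM in label-matched DKO. As labelled, its ranges were 0.04 to 22.3 RPKM in WT and 0.015 to 18.1 RPKM in DKO. Label-matched libraries held W1 and W2 with K1 and K3 on LG days 2 and 4, W1 with K1 and K3 on LG days 8 and 12, W1 and W2 with K3 on HG days 8 and 12, W1 and W2 on HG day 4, and K1 ESC. Depth lay between 10.5 and 25.5 M reads per library, with a median of 15.4 M.

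The libraries also fell into 2 sets by a gene outside the chain, the ribosomal protein gene Rps28. A total of 19 libraries held 0.794 to 4.07 RPKM of it and 23 held 192 to 427 RPKM, with none in between. Among label-matched libraries 16 were low and 8 were high. All label-matched libraries of days 8 and 12, of HG day 4 and of K1 ESC were low. All of LG days 2 and 4 were high except 1 of the 2 W1 libraries on LG day 4. Differences between day 2 and day 12, and between media on day 4, therefore cannot be told apart from the difference between the library sets. The comparisons of genotype and of glucose on days 8 and 12, and of WT HG day 12 with day 4, lie within the low set, and LG day 2 lies within the high set.

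Sequences upstream of 3 members are shown because each differed between genotypes on LG day 12 and holds a recognition sequence of a regulator of respiratory chain genes. Ndufa6 passed in no other late genotype comparison. Since holding such a sequence was part of the choice, the display cannot show a link between the sequences and the genotype differences. The windows are RefSeq promoters on GRCm38.p6, 250 bases before to 50 bases after the annotated start, written 5′ to 3′ on the gene's strand. Capitals mark matches on either strand to GCGCANGCG, the core sequence of NRF1 (nuclear respiratory factor 1), or to CCGGAAG, that of ETS factors such as GABPA (nuclear respiratory factor 2). Overlapping matches are joined into 1 run, as in Ndufaf4, whose match reads on both strands. The window of Ndufaf4 is chr4:24897833-24898132, plus strand, that of Ndufa6 is chr15:82354242-82354541, minus strand, and that of Atp5h is chr11:115419870-115420169, minus strand.
Ndufaf4: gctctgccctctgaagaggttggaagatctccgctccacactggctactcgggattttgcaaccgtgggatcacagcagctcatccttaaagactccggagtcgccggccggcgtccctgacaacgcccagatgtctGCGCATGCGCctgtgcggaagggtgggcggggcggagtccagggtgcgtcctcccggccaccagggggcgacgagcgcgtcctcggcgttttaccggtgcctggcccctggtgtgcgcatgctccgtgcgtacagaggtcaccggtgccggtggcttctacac
Ndufa6: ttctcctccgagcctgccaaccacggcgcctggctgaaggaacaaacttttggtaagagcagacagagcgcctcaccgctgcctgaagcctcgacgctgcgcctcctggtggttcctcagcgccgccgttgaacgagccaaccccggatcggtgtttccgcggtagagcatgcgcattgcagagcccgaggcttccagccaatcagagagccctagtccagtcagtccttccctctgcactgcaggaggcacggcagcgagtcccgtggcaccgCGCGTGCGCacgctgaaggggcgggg
Atp5h: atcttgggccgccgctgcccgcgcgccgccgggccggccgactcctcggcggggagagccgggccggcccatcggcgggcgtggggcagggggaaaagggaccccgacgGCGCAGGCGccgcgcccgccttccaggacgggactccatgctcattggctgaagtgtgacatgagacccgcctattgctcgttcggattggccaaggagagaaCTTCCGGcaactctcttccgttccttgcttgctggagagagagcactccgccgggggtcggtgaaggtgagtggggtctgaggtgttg
The Ndufaf4 and Ndufa6 windows hold 1 run each, of the NRF1 letters, in Ndufa6 on the opposite strand. The Atp5h window holds an NRF1 run followed by an ETS run in reverse orientation. Of the 88 members, 73 had a promoter window. The NRF1 letters stood in 28.2% of 78 member windows and in 6.2% of all 32851 windows. The ETS letters stood in 21.8% of member windows and in 8.9% of all windows. AAGATGGC, the core of the YY1 sequence, stood in 15.4% and 2.7%. The window of Ndufaf2, another gene with a genotype difference, held none of these letters. These matches are descriptions of the sequence and not measured binding. Windows of Ndufaf6, Cox4i2 and Ndufa4l2 were not used here.

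The chain was abundantly transcribed. Over all 42 libraries the median member averaged 65.5 RPKM, 26 members averaged over 100 RPKM and 10 under 10 RPKM, and 83 reached 1 RPKM in every library. The median over members of the mean level rose from 51.2 RPKM in complex I through 72.8 in complex II, 102 in complex III and 118.5 in complex IV to 142.8 in complex V. Assembly factors and relatives had a median of 12.8 RPKM. In complex I, levels ran from Ndufab1, the mitochondrial acyl carrier protein, at 5.01 RPKM to Ndufa7, an accessory subunit, at 188 RPKM. Complex II spanned its membrane anchors, Sdhc at 61.3 RPKM and Sdhd at 98.4 RPKM. Complex III spanned Uqcrb, a small subunit near the ubiquinone site, at 64.9 RPKM to Uqcrh, the hinge protein, at 177 RPKM. In complex IV, Cox4i1, the common form of subunit 4, averaged 420 RPKM against 1.64 RPKM for its paralogue Cox4i2. In complex V, Atp5b, the catalytic beta subunit, averaged 738 RPKM against 1.31 RPKM for Atp5g2. Among the assembly factors, Ndufaf5 was the lowest at 3.69 RPKM and Uqcc2, a complex III assembly factor, the highest at 70.8 RPKM.

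The c-ring of ATP synthase is built from a single mature peptide that 3 genes encode. Over the 23 label-matched values (1 per line and condition), Atp5g3 had a median of 289 RPKM, Atp5g1 of 4.37 RPKM and Atp5g2 of 0.878 RPKM. Nearly all c-subunit RPKM in the table thus stood under Atp5g3. How reads that match several of these genes were handled is not stated, so the true shares of the isoforms are not known here. The testis-type isoform Cox6b2 made up 7.71% to 24.2% of Cox6b transcript in label-matched libraries, and the muscle-type isoform Cox7a1 made up 2.02% to 12.9% of Cox7a transcript. Cox4i2, a form of subunit 4 known from lung and from hypoxic cells, made up 0.02% to 2.64% of Cox4 transcript.

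Members differed widely in how much they varied. The median SD of log2(RPKM + 1) over the 23 values was 0.294 for members and 0.372 for the 6200 genes that averaged at least 10 RPKM. Among the steadiest were Uqcrc2, a core protein of complex III (SD 0.138), and Ndufa8, an accessory subunit of complex I (SD 0.143). The most variable were Ndufa4l2, a hypoxia-inducible relative of the complex IV subunit Ndufa4 (SD 1.05), Cox4i2 (SD 0.962) and Atp5g1 (SD 0.941). Across the 23 values, a member's Pearson correlation with the median of the other members had a median of 0.626 and exceeded 0.5 in 52 of 88 members, while 11 were below 0. These values share libraries, so the correlation is descriptive. A total of 20 members share exon bases with another annotated gene and 5 have a named pseudogene (Atp5c1, Atp5k, Atp5l, Ndufab1 and Uqcrh). The kit did not mark strand, so reads of overlapping or antisense genes could not be told apart, and this touches Ndufab1 and Cox4i1, described above, and Ndufa4l2 (Shmt2), Uqcrb, Uqcrc2 (Pdzd9), Ndufa13, Atp5l and Atp5a1, which carry results below.

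Summed over members, the chain made up 2.01% to 2.80% of all RPKM in label-matched libraries. On LG day 2 its share was 2.67% and 2.71% in WT and 2.77% and 2.78% in DKO. By LG day 12 it was 2.14% in W1, 2.31% in K1 and 2.02% in K3, and on HG day 12 it was 2.03% in W1, 2.01% in W2 and 2.01% in K3. On HG day 8 it was 2.13% in W1, 2.23% in W2 and 2.08% in K3. On LG day 12 the DKO shares thus lay on both sides of W1, on HG day 12 K3 lay within the WT range, and on HG day 8 it lay below both WT lines. On HG day 4 the share was 2.33% in W1 and 2.41% in W2. In the left-out libraries it ran from 2.08% to 3.01%.

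**Figure D1:**
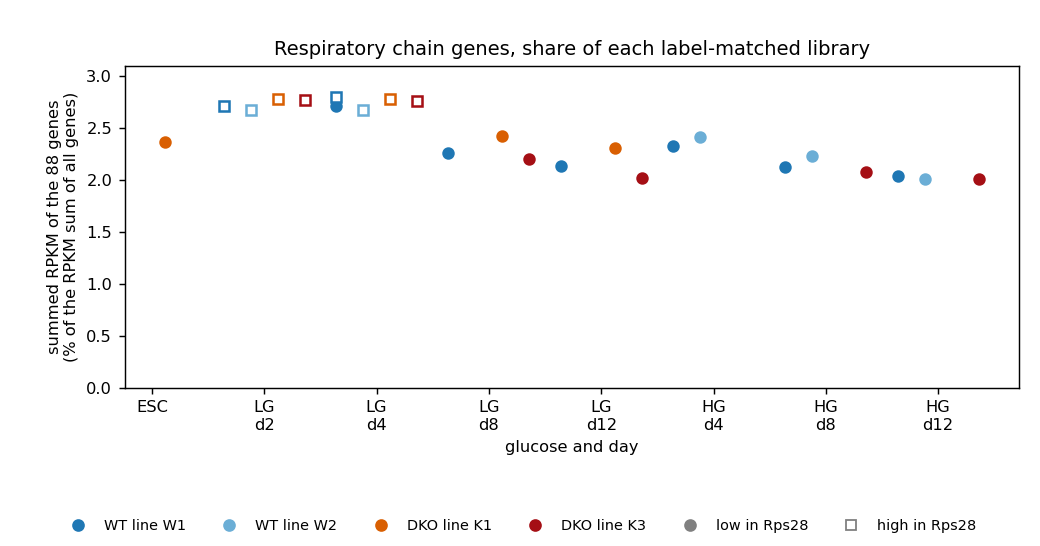
Share of the RPKM sum held by the 88 members (percent, vertical axis) in each label-matched library by glucose and day, coloured by line; hollow squares are libraries high in Rps28. Shares lie between 2.67% and 2.80% on LG days 2 and 4 and between 2.01% and 2.43% on days 8 and 12, where K3 lies under both WT lines on HG day 8 and between them on HG day 12.

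Whether loss of AMPK changes expression during differentiation is the question of the study's design. Early in low glucose no member passed the test. A member is called here when its adjusted p was under 0.05 in a limma fit of log2(RPKM + 1) over all 14670 genes tested, and all log2 changes are on that scale, which understates those of low genes. On LG day 2, 0 of 88 members were called against 0.150% of all genes, with 2 members under an unadjusted p of 0.05. On LG day 4, 0 were called against 1.67% of all genes, with 6 under an unadjusted p of 0.05. The limma median change of members (DKO minus WT) was 0.12 on day 2 and 0.08 on day 4, beside 0.00 over all genes on both days. It was positive in 70 of 88 members on day 2 and 68 on day 4. Over all genes averaging over 10 RPKM with transcripts up to 600 nt the median was 0.15 on day 2 and 0.19 on day 4, beside 0.16 and 0.15 over the 34 members of that length. With a transcript length trend removed from each library, the change was positive in 51 members on day 2 and in 37 on day 4, with medians of 0.03 and -0.03. Atp5b illustrates the size of the spread: on LG day 2 it read 899 and 846 RPKM in W1 and W2 and 884 and 898 RPKM in K1 and K3.

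Late in low glucose the differences were few. The WT arm was W1 alone, so genotype and that line cannot be told apart. The calls included the complex I assembly factors Ndufaf4, Ndufaf2 and Ndufaf6, but not Ndufaf3, Ndufaf5 or Ndufaf7. Over 34 tested assembly factors with other names, the median change on LG day 12 was -0.11. On LG day 8, 5 members were higher in DKO and 0 lower, against 11.0% and 7.94% of all genes. On LG day 12, 8 were higher and 2 lower, against 22.3% and 13.0%. The members' share of calls was below that of all genes in each direction on both days. The median change of members was 0.05 on day 8 and -0.01 on day 12, beside 0.10 and 0.16 over all genes. Of the 13 assembly factors and relatives 3 were higher on day 8 and 5 on day 12, with none lower. In complex I, 1 of 33 was higher on day 8, and 2 were lower on day 12. In complex V, 1 of 15 was higher on day 8 and 2 on day 12. Complex II had 1 called member on day 12, and complexes III and IV had none on either day by limma, with 2 members of complex IV on day 8 and 3 on day 12 under an unadjusted p of 0.05 and 0 of complex III. Median-of-ratios scaling, which lowered the median of all genes from 0.16 to 0.06 on day 12, gave 2 higher and 7 lower members there, and 2 higher and 1 lower on day 8. With the length trend removed there were 6 higher and 3 lower on day 12, and 2 higher and 1 lower on day 8. The split between higher and lower calls therefore depends on the scaling and on the length trend.

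Ndufaf4, an assembly factor of complex I (chromosome 4, 24898083 to 24905001, plus strand, mm10), was the gene called in all 4 late genotype comparisons. On LG day 8 it read 6.16 RPKM in W1, 13.1 RPKM in K1 and 14.9 RPKM in K3. On LG day 12 it read 4.80 RPKM in W1, 7.92 RPKM in K1 and 10.01 RPKM in K3. On HG day 8 it read 4.97 and 5.37 RPKM in W1 and W2 and 10.1 RPKM in K3, and on HG day 12 it read 3.79 and 3.66 RPKM in W1 and W2 and 7.21 RPKM in K3. All DKO values stood above all WT values of the same day and medium. The log2 change was 1.06 ± 0.17 (SE, limma adjusted p = 0.00330) on LG day 8 and 0.77 (SE 0.17, limma adjusted p = 0.00512) on LG day 12. In HG it was 0.85 (SE 0.17, limma adjusted p = 0.0106) on day 8 and 0.80 (SE 0.17, limma adjusted p = 0.00545) on day 12. On LG day 2 the groups overlapped, with 9.23 and 10.3 RPKM in W1 and W2 and 9.48 and 9.29 RPKM in K1 and K3. On LG day 4 they overlapped too, at 9.26 RPKM in W1 (mean of 2 libraries on the log scale), 10.4 in W2, 7.67 in K1 and 9.54 in K3. The change between genotypes from LG day 2 to day 12 itself differed by 0.82 (SE 0.22, limma adjusted p = 0.0254). In the label-matched libraries between 186 and 711 reads stood behind a value of this gene.

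With all libraries as labelled, the log2 change of Ndufaf4 was 0.90 on LG day 8 (limma adjusted p = 0.127), 0.50 on LG day 12 (adjusted p = 0.262), 0.70 on HG day 8 (adjusted p = 0.409) and 0.91 on HG day 12 (adjusted p = 0.0424). The direction was the same in all 4, and 1 passed. Leaving out W2, which contributes to the spread estimate in LG, took both LG calls over the threshold, and leaving out W1 or W2 did so for both HG calls.

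The other late rises in LG were of assembly factors and of single subunits. Ndufaf2, a complex I assembly factor related to a subunit of the matrix arm, read 13.6 RPKM in W1 and 26.7 and 21.8 RPKM in K1 and K3 on LG day 8, and 9.86 RPKM in W1 and 19.9 and 16.3 RPKM in K1 and K3 on day 12. Its log2 change was 0.78 ± 0.21 (SE, limma adjusted p = 0.0227) on day 8 and 0.81 (SE 0.21, limma adjusted p = 0.0103) on day 12. Ndufaf6, a further complex I assembly factor, read 6.90 RPKM in W1 against 13.2 and 10.6 RPKM in DKO on day 8, and 4.95 against 8.92 and 8.27 RPKM on day 12. For both genes each DKO line stood above W1. In HG neither was called. There Ndufaf6 read 10.4 RPKM in K3 on both days, below the 12.7 and 11.8 RPKM of WT on day 8 and above the 8.83 and 9.22 RPKM of WT on day 12. Atp5h, a subunit of the peripheral stalk of ATP synthase, read 25.5 RPKM in W1 and 40.3 and 48.1 RPKM in DKO on LG day 8, with a log2 difference of 0.76 ± 0.20 (SE, limma adjusted p = 0.0233). It read 26.7 RPKM on LG day 12 against 39.9 and 50.2 RPKM.

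On LG day 12 the calls also took in Ndufaf1, an early assembly factor of complex I, with a log2 difference of 0.58. They also took in Atp5sl (Dmac2 in RefSeq), named after the coupling factor Atp5s, with 0.59. Atp5c1, the rotating gamma subunit of ATP synthase, rose by 0.48 and Sdha, the flavoprotein of complex II, by 0.32. Sdha read 58.8 RPKM in W1 and 73.6 and 73.3 RPKM in K1 and K3. The core subunit Ndufv2, an iron-sulfur protein of complex I, was called on LG day 8 with a log2 difference of 0.41 (47.97 RPKM in W1, 60.7 and 67.9 RPKM in DKO). The adjusted p-values of these 5 calls lay between 0.0129 and 0.0474. With the length trend removed, Atp5h, Ndufaf6 and Ndufv2 were no longer called on LG day 8, nor Ndufaf1 and Ndufa6 on LG day 12.

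A pair of accessory subunits of complex I fell in DKO on LG day 12. Ndufa13 read 57.3 RPKM in W1 and 39.3 and 33.1 RPKM in K1 and K3, a log2 difference of -0.65 ± 0.19 (SE, limma adjusted p = 0.0169). Ndufa6, an LYR-motif protein at the junction of the complex's arms (chromosome 15, 82350139 to 82354291, minus strand), read 127 RPKM in W1 and 78.4 and 102 RPKM in K1 and K3, a log2 difference of -0.51 ± 0.15 (SE, limma adjusted p = 0.0212). On LG day 2 Ndufa6 had stood the other way, at 81.7 and 87.4 RPKM in WT and 102 and 115 RPKM in DKO, a difference that did not pass. From LG day 2 to day 12 the genotype difference of Ndufa6 changed by -0.86 (SE 0.19, limma adjusted p = 0.0126). Ndufa6 and Ndufaf4 were the 2 members called in that test, against 18.4% of all genes. With line as a replicate block 6 members were called. Without W2 limma called 0 and without K1 it called 26. Median-of-ratios scaling gave 0 rises and 6 falls.

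In high glucose the late comparison rests on K3 against both WT lines, so genotype and the line K3 cannot be told apart. On HG day 8, Ndufaf4 was the 1 member higher and 0 were lower, against 7.89% and 7.38% of all genes, and with line as a replicate block 2 were called. On HG day 12, 6 members were higher and 5 lower, against 20.2% and 12.0% of all genes. Median-of-ratios scaling gave 3 higher and 10 lower on day 12, and quantile scaling 12 higher and 4 lower. With the length trend removed, 6 were higher and 8 lower on day 12. On day 8 median-of-ratios scaling and removal of the length trend each gave 1 higher and 2 lower. The largest rise on day 12 was of Ndufa4l2, at 1.93 and 4.01 RPKM in W1 and W2 and 18.5 RPKM in K3, with a log2 difference of 2.35 (SE 0.69, limma adjusted p = 0.0232). Cox4i2 read 3.39 and 4.05 RPKM in WT and 8.41 RPKM in K3, a log2 difference of 1.00 ± 0.33 (SE, limma adjusted p = 0.0375). Both are known as hypoxia-inducible variants, and K3 stood above both WT lines for each. Neither was called on LG day 12, with log2 changes of 1.29 for Ndufa4l2 and 0.49 for Cox4i2.

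The 5 members lower on HG day 12 were Cox6a1, Cox8a, Uqcr11, Ndufa3 and Ndufa13. Cox6a1, the common form of subunit 6A, read 229 and 214 RPKM in WT and 115 RPKM in K3, a log2 difference of -0.94 ± 0.31 (SE, limma adjusted p = 0.0381). Cox8a, a small transmembrane subunit of complex IV, read 181 and 197 RPKM against 114 RPKM, and Uqcr11, the smallest subunit of complex III, 40.1 and 42.5 RPKM against 25.9 RPKM. Ndufa3, an accessory subunit, changed by -0.68 and Ndufa13 by -0.68. In the same comparison Ndufa10 (0.46), Ndufv2 (0.46) and Atp5sl (0.65) were higher, and Ndufa10 was no longer called with the length trend removed. Without W1 or without W2, 0 members were called on HG day 12 by limma, with 5 under an unadjusted p of 0.05 in each case. These fits have 4 residual degrees of freedom. On HG day 8 they called 0, with 4 and 3 under an unadjusted p of 0.05, and without K1 20 were called. On day 12, without K1, which is in neither HG arm and enters through the spread, 30 were called.

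**Figure D2:**
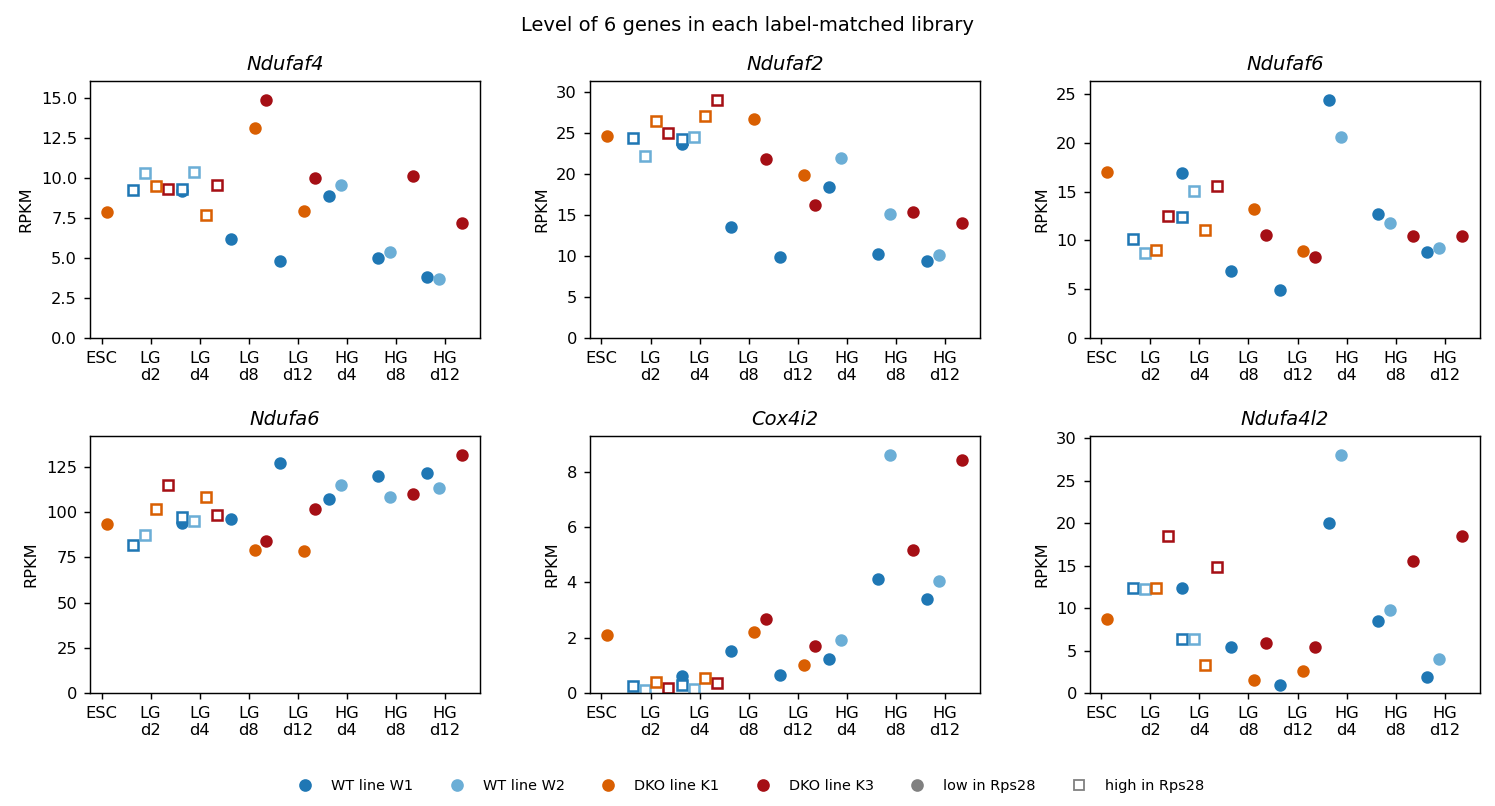
RPKM (vertical axis) of Ndufaf4, Ndufaf2, Ndufaf6, Ndufa6, Cox4i2 and Ndufa4l2 by day and medium, 1 point per label-matched library, coloured by line; filled circles are libraries low in Rps28 and hollow squares those high in it. Ndufaf4 separates DKO from WT on days 8 and 12 (7.21 to 14.9 RPKM against 3.66 to 6.16 RPKM) and does not on LG days 2 and 4.

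**Figure D3:**
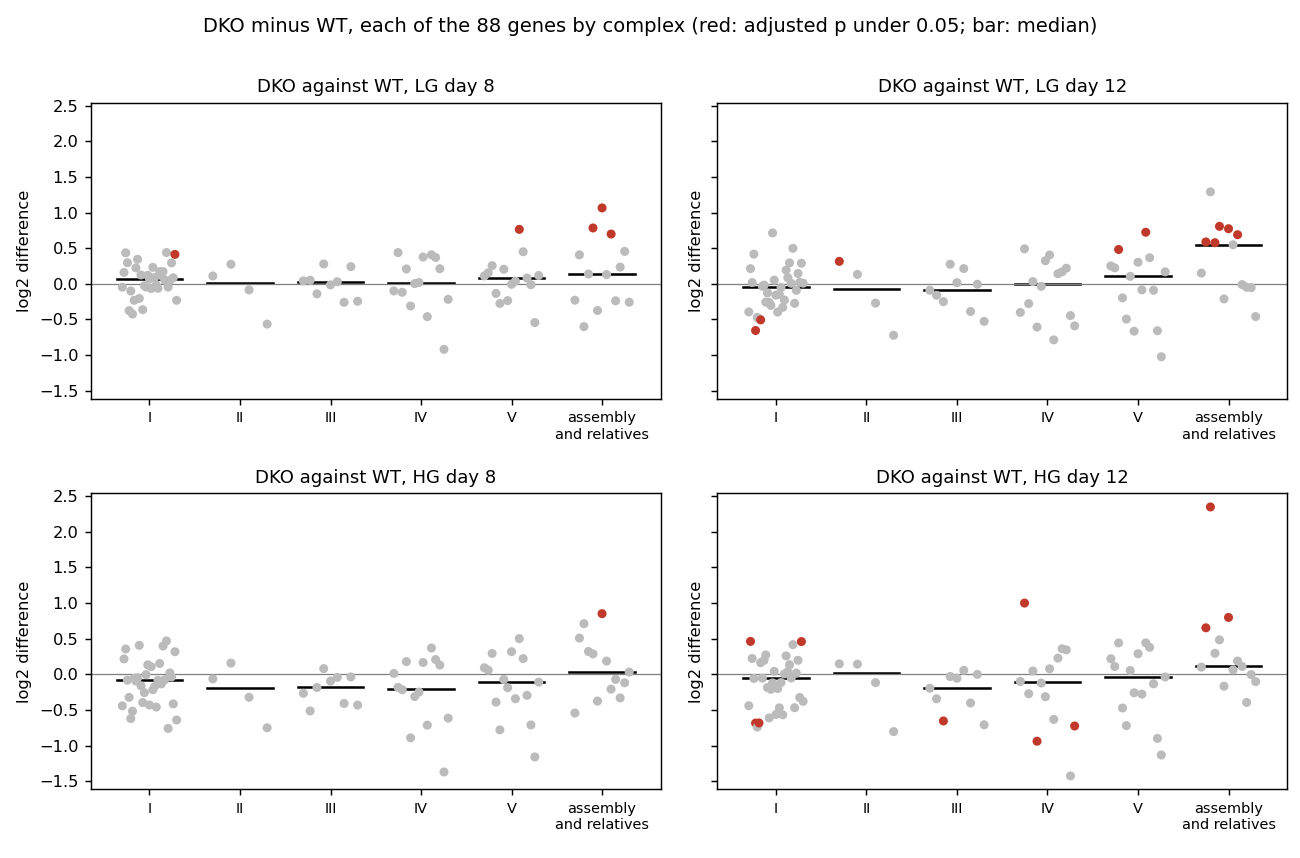
Log2 change of each member, DKO against WT, on days 8 and 12 in LG and HG, by complex, in 4 panels, 1 point per gene, with called members in red and a bar at the median. On LG day 12 the assembly factors and relatives have 5 of 13 members called higher, while complexes III and IV have none called. The highest point of that class, at 1.29, is Ndufa4l2, which was not called.

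The cell mixture differed between genotypes in the same late libraries, and in bulk samples fewer cells of a type and less RNA per cell cannot be told apart. The summed RPKM of 8 pluripotency markers was 258 in W1 and 360 to 534 in DKO on LG day 8, and 139.5 in W1 and 352 to 465 in DKO on LG day 12. In HG it was 187 to 290 in WT and 449 in K3 on day 8, and 74.9 to 76.3 in WT and 237 in K3 on day 12. Of these markers 2, 6, 3 and 5 of 8 were called higher in the order LG day 8, LG day 12, HG day 8 and HG day 12, and 1, 1, 0 and 1 lower. The summed RPKM of 9 visceral endoderm markers was 914 in W1 and 7.7 to 149 in DKO on LG day 8, 3543 and 174 to 250.0 on LG day 12, 1505 to 2686 and 72.1 on HG day 8, and 5099 to 7589 and 1319 on HG day 12. Of them 5, 5, 5 and 1 were called lower and 0 higher. Of 7 neural markers 2, 3, 1 and 6 were called higher. Of 9 cardiac and striated muscle markers tested, 8 were higher on HG day 12, with sums of 230.0 and 258 RPKM in WT and 1234.5 RPKM in K3. Of 7 mesenchyme and feeder markers 2, 2, 1 and 3 were higher and 0, 2, 4 and 4 lower, and of 4 erythroid markers tested 1, 2, 2 and 2 were lower. The part of these cell types in the members' differences was not tested.

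All 42 libraries as labelled gave few calls. By limma over 14914 genes, 0 members were called on LG day 2 (0% of all genes), LG day 4 (0%), LG day 8 (0.349%), LG day 12 (3.84%) and HG day 8 (0.0134%), and 1 was called on HG day 12 (3.58%). Members under an unadjusted p of 0.05 numbered 1, 0, 5, 15, 6 and 9 in that order. The genotype by day test called 0 members (0.0335%), with 7 under an unadjusted p of 0.05, and the genotype by glucose test called 0 (1.03%), with 19.

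On days 8 and 12 the 2 DKO lines differed from each other in many members. By LG day 12, 25 members lay more than 0.5 (log2) lower in K3 than in K1, and 4 lay more than 0.5 higher. On LG day 8 these numbers were 19 and 3. On LG day 2 they were 1 and 4, and on LG day 4 they were 0 and 2. On both late days 19 members were lower in K3 and 3 higher. Each value is 1 library, so the difference has no replicate check, and line and library cannot be told apart. Among genes averaging over 10 RPKM, 12.3% of 6200 were lower in K3 on both late days and 2.3% higher, beside 22.7% and 2.7% of the 75 members in that range.

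Atp5g1 had the largest mean difference between the DKO lines over the 2 days, at 8.19 RPKM in K1 and 1.26 RPKM in K3 on LG day 8, and 5.90 and 0.597 RPKM on LG day 12. Cyc1, cytochrome c1 of complex III, read 144 RPKM in K1 and 74.9 RPKM in K3 on LG day 8, and 124 and 47.4 RPKM on LG day 12. W1 stood between them, at 101 and 81.8 RPKM. Sdhd, a membrane anchor of complex II, read 115 and 59.9 RPKM in K1 and K3 on LG day 8 and 89.8 and 44.6 RPKM on day 12, beside 123 and 105 RPKM in W1. In HG, K3 read 62.7 and 63.2 RPKM of Sdhd on days 8 and 12, below the 103 to 112 RPKM of the WT lines, and the differences did not pass (limma adjusted p = 0.172 and 0.1101). Cox7c, a small subunit of complex IV named here after its values were seen, differed most on LG day 8, at 9.59 RPKM in K1 and 1.44 RPKM in K3. Atp5e, the epsilon subunit of ATP synthase, named here after its values were seen, read 168 RPKM in K1 and 83.8 RPKM in K3 on LG day 8. Uqcrb went the other way, at 38.7 RPKM in K1 and 54.2 RPKM in K3 on that day. Without K1, limma called 19 members on LG day 8 and 39 on LG day 12. Without K3 it called 12 and 9. Without W2 it called 0 on LG day 8, with 4 under an unadjusted p of 0.05, and 1 on LG day 12, Ndufaf2. Ndufaf2 on day 8 and Ndufa6 on day 12 also missed the threshold without K1, and Atp5h on both days and Ndufa13 on day 12 did so without K3. Shares of all genes called with a line left out are not given here, so these counts do not set members apart.

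**Figure D4:**
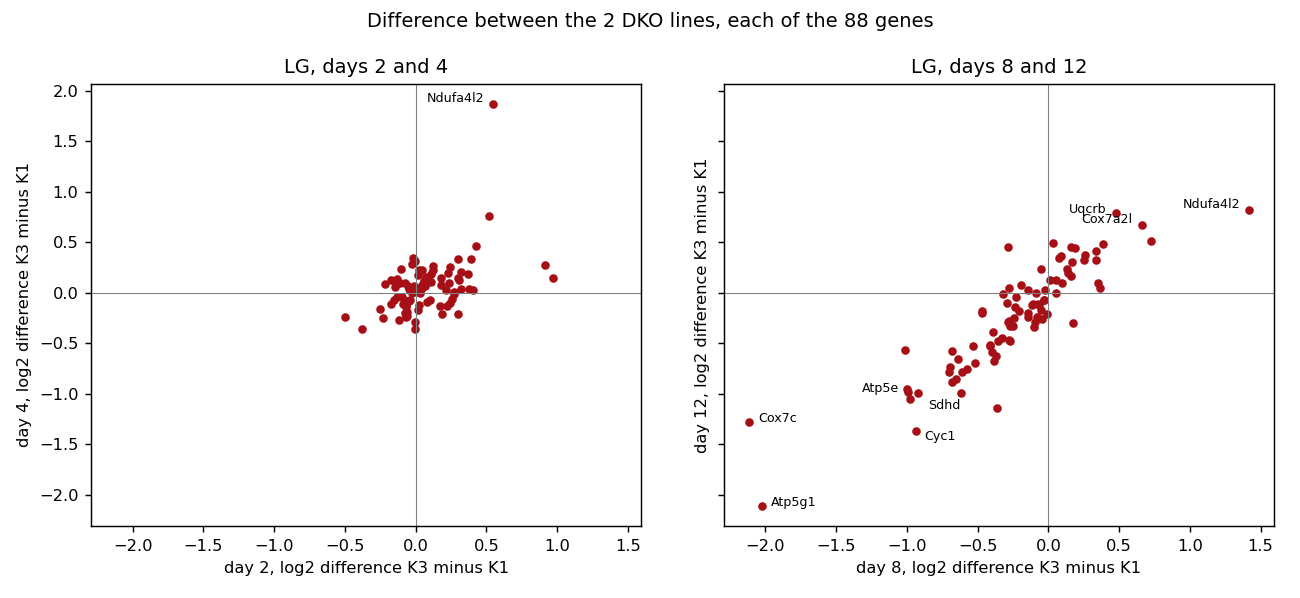
Difference between the DKO lines in LG (K3 minus K1, log2 of RPKM + 1), 1 point per gene, with day 2 against day 4 on the left and day 8 against day 12 on the right. The median moves from 0.03 on day 2 to -0.20 on day 8 and -0.19 on day 12, with Atp5g1 lowest on day 12 at -2.11.

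Glucose at days 8 and 12 was compared within each genotype, over both days. In WT, 0 members were higher in LG and 5 lower, against 4.23% and 10.5% of all genes, and the LG arm is W1 alone. In DKO, 0 were higher and 3 lower, against 1.81% and 4.90%, and the HG arm is K3 alone. Median-of-ratios scaling gave 3 higher and 4 lower in WT and 2 higher and 2 lower in DKO, and quantile scaling 1 and 4 in WT and 2 and 3 in DKO. With the length trend removed there were 2 higher and 4 lower in WT. As labelled, 1 member was called in WT (Cox4i2, -1.45, limma adjusted p = 0.0431), against 6.87% of all genes, and 1 in DKO (Ndufa6, -0.48, adjusted p = 0.0454), against 1.59%.

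Cox4i2 (chromosome 2, 152754173 to 152765037, plus strand) was lower in LG in both genotypes among label-matched libraries. In WT it read 1.53 and 0.659 RPKM on LG days 8 and 12 in W1, and 4.11 and 3.39 RPKM in W1 and 8.61 and 4.05 RPKM in W2 on the same days in HG. In DKO it read 2.22 and 0.999 RPKM in K1 and 2.67 and 1.72 RPKM in K3 in LG, and 5.18 and 8.41 RPKM in K3 in HG. The media did not overlap in either genotype. With all libraries as labelled, the log2 change, LG against HG, was -1.45 in WT and -0.39 in DKO, the latter with limma adjusted p = 0.670. Cardiac and striated muscle markers moved with Cox4i2 in the same label-matched libraries. Of the 9 tested, 8 were called lower in LG in WT and 9 in DKO, and their summed RPKM was 18.5 and 34.6 in LG against 230.0 to 718 in HG in WT, and 22.4 to 75.7 against 562 and 1234.5 in DKO. The highest Cox4i2 values, in W2 on HG day 8 and in K3 on HG day 12, came from the libraries with the highest sums, 718 and 1234.5. The part of these cells in the difference of Cox4i2 was not tested. The log2 change, LG against HG, was -1.49 (SE 0.23, limma adjusted p = 0.00199) in WT and -1.43 (SE 0.23, limma adjusted p = 0.00389) in DKO. The difference between these changes was 0.06 (SE 0.33, limma adjusted p = 0.961), and the genotype by glucose test called 0 of 88 members against 1.25% of all genes, with 4 under an unadjusted p of 0.05. Cox4i2 is a low gene, with 1 to 85 reads behind a label-matched value, so its single values carry a large counting error. Without W2 limma called 0 members in WT, with 8 under an unadjusted p of 0.05, and without K1 or K3 it called 11. In DKO it called 1 without W1 or W2 and 6 without K1.

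The other falls called in LG each passed in a single genotype. In WT, Cox6b2 changed by -0.86 (limma adjusted p = 0.0184), from 29.5 to 41.8 RPKM in HG to 22.0 and 17.2 RPKM in LG, and in DKO by -0.41 (adjusted p = 0.285). Ndufaf6 changed by -0.75 in WT (limma adjusted p = 0.00828) and by -0.04 in DKO (adjusted p = 0.908). Atp5s, a complex V coupling factor, changed by -0.56 in WT and in the same direction in DKO, by -0.38. Uqcrc2 changed by -0.28 in WT, a call lost with the length trend removed, and by -0.17 in DKO. In DKO, Ndufa4l2 changed by -1.99 (SE 0.49, limma adjusted p = 0.0324), with 15.6 and 18.5 RPKM in K3 in HG, 5.91 and 5.47 RPKM in K3 in LG, and 1.59 and 2.66 RPKM in K1 in LG. In WT its change was -0.80 (adjusted p = 0.309), and the difference between genotypes did not pass (-1.18, limma adjusted p = 0.466). Ndufa6 changed by -0.49 in DKO (adjusted p = 0.0173) and by -0.07 in WT (adjusted p = 0.730). The difference between these changes, DKO minus WT, was 0.70 for Ndufaf6 and -0.42 for Ndufa6, and neither passed. Ndufa4l2 and Ndufa6 lost their DKO calls without W1 and without W2.

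On WT day 4 the media also fell in different library sets. There 13 members were higher in LG and 2 lower, against 4.31% and 7.86% of all genes, with Uqcrb at 1.12 and Atp5h at 1.03 the largest rises and Cox4i2 at -0.99 the largest fall. Quantile scaling gave 13 higher and 0 lower, removal of the length trend 13 and 4, line as a replicate block gave 24 calls, and without W1 or without W2 limma called 0, with 12 and 14 under an unadjusted p of 0.05. Without K1 or K3 it called 30. As labelled 0 were called (0% of all genes), with 1 under an unadjusted p of 0.05. Within the libraries low in Rps28, limma called 0, with 13 under an unadjusted p of 0.05. The 2 W1 libraries of LG day 4 share a heading and lie in different sets, so they show the size of the set difference directly. Uqcrb read 35.2 RPKM in the library of the low set and 97.7 RPKM in that of the high set, and Atp5h 37.7 and 85.8 RPKM. Atp5l, a membrane subunit of ATP synthase, read 5.15 and 0.328 RPKM, and Cox7c 20.01 and 4.88 RPKM. These were the 4 members over 1 (log2) apart, whereas 51 of 88 lay within 0.3 and the median difference was 0.04. The 2 libraries of that heading differed over all genes averaging over 10 RPKM too, with 75.3% within 0.3 and 1.0% over 1.

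The change over differentiation within a single library set could be followed in WT in HG, from day 4 to day 12. Of 88 members 2 were higher and 25 lower on day 12, against 22.2% and 27.0% of all genes, so the share of falls was near that of all genes and the share of rises was below it. The median change of members was -0.21, beside -0.08 over all genes. With the length trend removed, 9 members were higher and 10 lower, with a median of 0.06, beside 0.12 over all genes, so the balance of falls over rises depends on that trend. The falls were then called for 4 of 13 assembly factors and relatives, 2 of 33 members of complex I and 2 of 15 of complex V. Falls were called for 7 of 13 assembly factors and relatives, 7 of 33 members of complex I, 2 of 4 of complex II, 2 of 9 of complex III, 3 of 14 of complex IV and 4 of 15 of complex V. For 65 of 88 members the values of the 2 lines did not overlap between the days. The share over all genes is not given here, so this count does not set members apart.

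Ndufaf4 went from 8.86 RPKM in W1 and 9.54 RPKM in W2 to 3.79 and 3.66 RPKM, a log2 difference of -1.11 ± 0.14 (SE, limma adjusted p = 5.17e-05). Ndufaf2 went from 18.4 and 22.0 RPKM to 9.43 and 10.1 RPKM, a log2 difference of -0.97 ± 0.17 (SE, limma adjusted p = 0.000511), and Ndufaf6 from 24.4 and 20.7 RPKM to 8.83 and 9.22 RPKM, a change of -1.23 (SE 0.18, limma adjusted p = 0.000154). All 3 are complex I assembly factors and fell in both lines. Ndufa4l2 showed the largest fall, from 20.1 and 28.03 RPKM to 1.93 and 4.01 RPKM, a log2 difference of -2.69 ± 0.57 (SE, limma adjusted p = 0.00193). Cyc1 went from 141 and 148 RPKM to 74.1 and 71.8 RPKM, a log2 difference of -0.98 ± 0.35 (SE, limma adjusted p = 0.0365), and its call was lost with the length trend removed.

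Subunits of complexes V and II were called too. Atp5a1, the alpha subunit of ATP synthase, changed by -0.63 from a mean of 430.5 ± 12.7 RPKM (SD, n = 2 lines) to 278 ± 5.90 RPKM, and its partner Atp5b by -0.50 from 729 ± 10.9 to 516 ± 1.25 RPKM. In complex II, Sdha changed by -0.48 and the iron-sulfur protein Sdhb by -0.39, while Sdhd read 113 and 109 RPKM on day 4 and 109.5 and 112 RPKM on day 12 and did not pass. The 2 rises were of Cox4i2, from 1.25 and 1.93 RPKM to 3.39 and 4.05 RPKM, and of Ndufa3, from 56.3 and 70.7 RPKM to 94.8 and 82.5 RPKM. Without W1 or without W2, 3 members were called, and as labelled 2 were called, against 15.3% of all genes. Ndufaf4 and Ndufaf2 were called under every alternative tried. Pou5f1, a pluripotency factor, lay between 283 and 287 RPKM in the day 4 libraries and between 6.75 and 11.8 RPKM in those of day 12, and the part of this shift in cell type in the members' falls was not tested.

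From LG day 2 to day 12, the library sets differ as well as the days. In WT, 2 members were higher and 35 lower on day 12, against 30.0% and 24.4% of all genes. In DKO, 2 were higher and 39 lower, against 33.4% and 17.5%. The median changes of members were -0.32 and -0.44, beside 0.10 and 0.19 over all genes. In WT the falls were led by Ndufa4l2 (-2.74), Uqcrb (-1.66), Cox6c (-1.57), Atp5h (-1.55), Cox7b (-1.41) and Ndufb4 (-1.25). In DKO they were led by Atp5g1 (-1.998), Ndufa4l2 (-1.73), Uqcrb (-1.52), Atp5k (-1.52), Ndufs6 (-1.42) and Uqcr11 (-1.40). Atp5l rose in both, by 2.39 in WT and 1.47 in DKO. Uqcrb, Atp5h and Atp5l are among the members that differed most between the 2 W1 libraries of one heading. As labelled, 0 members were called in WT (0.778% of all genes), with 10 under an unadjusted p of 0.05, and 16 in DKO (18.6%). Without W2 the WT count was 19, with Ndufa4l2 and Ndufa6 no longer called. In DKO, Atp5g1 and Ndufa4l2 were not called without W1 or without W2, nor Atp5l without K1.

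Over all genes, and over members in DKO, the change also went with transcript length. Over members in WT it did not. For genes averaging over 10 RPKM with transcripts up to 600 nt, the median change from day 2 to day 12 was -0.45 in WT and -0.49 in DKO over all genes, and -0.43 and -0.70 over members of that length. In the longest length class, which holds 8 members, the medians over all genes were -0.07 in WT and 0.12 in DKO. Over members of that class they were -0.50 and -0.17. From WT HG day 4 to day 12, member medians were -0.10 up to 600 nt and -0.41 in the longest class. Over all genes they were -0.22 and -0.17 there. With the length trend removed, from LG day 2 to day 12, 13 members were higher and 23 lower in WT, and 8 higher and 19 lower in DKO. Of the 35 members lower in WT LG, 18 were also among the 25 lower in WT HG from day 4 to day 12, and 25 were among the 39 lower in DKO. Atp5b read 899 and 846 RPKM on LG day 2 in WT and 517 RPKM on LG day 12 in W1, and Sdha read 89.0 and 81.4 RPKM and then 58.8 RPKM. Both fell in WT in both media.

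**Figure D5:**
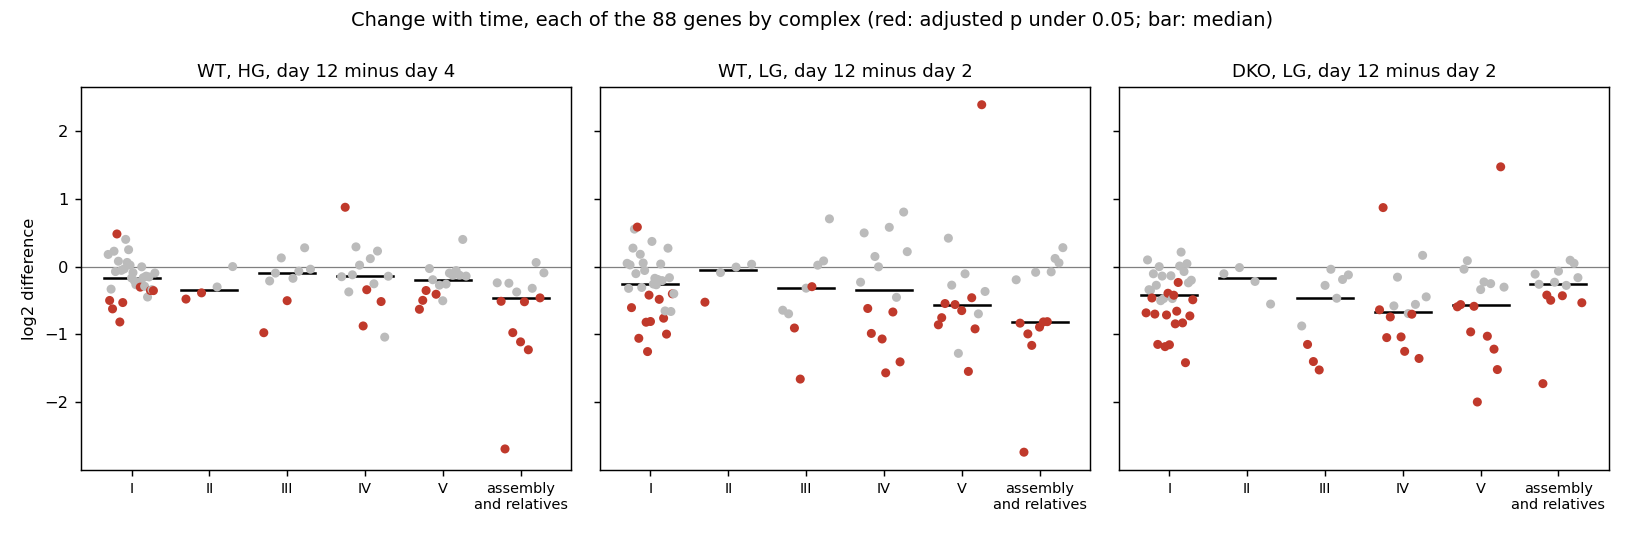
Log2 change over days of each member by complex, 1 point per gene, with called members in red and a bar at the median, for day 12 against day 2 in LG and for day 12 against day 4 in WT HG, the comparison within 1 library set. Most points lie under 0 in each, and the assembly factors and relatives of WT HG have 7 of 13 called lower.

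Other genes of the same pathway were counted from lists, beside 22.3% of all genes higher and 13.0% lower on LG day 12, 20.2% and 12.0% on HG day 12, and 22.2% and 27.0% from WT HG day 4 to day 12. In the comparison of LG day 12, of 34 tested assembly factors with other names, 1 was higher in DKO and 3 were lower, with a median of -0.11. They were Sco1 (0.58), which loads copper into complex IV, and Cox17 (-0.60), a copper chaperone, Pet100 (-0.67) and Surf1 (-0.49), both complex IV assembly factors. On HG day 12 the counts were 3 and 3. Of 16 regulators of mitochondrial biogenesis, 6 were higher and 1 lower on LG day 12, with a median of 0.37, and 7 and 1 on HG day 12. They included Esrrb (2.404), a nuclear receptor of pluripotent cells, Gabpa (0.79), Tfb1m (0.70), a mitochondrial rRNA methyltransferase, and Polg (-1.66), the mitochondrial DNA polymerase. Of 19 genes of the tricarboxylic acid cycle and pyruvate entry, 4 were higher and 1 lower on LG day 12 and 3 and 1 on HG day 12, led by Dld (0.59), Dlat (0.42), Pdhx (0.70) and Mpc2 (-0.61). Of 9 hypoxia-responsive genes 1 was higher on LG day 12, Pdk1 (1.10), a kinase that inhibits pyruvate dehydrogenase. Of 11 genes of electron carriers, adenine nucleotide exchange and uncoupling 0 were called there by limma, with 2 under an unadjusted p of 0.05, and 1 was higher on HG day 12. From WT HG day 4 to day 12, 2 of the 16 regulators were higher and 8 lower, and of the 34 assembly factors 3 were higher and 7 lower. The median change of the 9 hypoxia-responsive genes, DKO against WT, was -0.003 on LG day 12 and 0.23 on HG day 12. For LG against HG on days 8 and 12 it was -0.28 in WT and -0.64 in DKO. Genes of the mitochondrial genome were not analysed here.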

How the data were processed

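The deposited table holds RPKM values that the authors computed for 24225 genes in 42 libraries of non-stranded poly(A) mRNA (TruSeq v2), in mm10 coordinates, as the file headers state. Tools listed without roles in the submitters' processing notes are STAR 2.4.0k, HOMER, R 3.1.1, edgeR 3.6.8 and FastQC 0.11.2. Since RPKM values are relative, a change in a few abundant transcripts moves all others. Depth was read from the steps of low values, which were whole multiples of 1 read within 0.1 read in 100% of cases, and gave 10.5 to 25.5 M reads. A count test on recovered reads was not run, since RPKM also depends on length.

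Columns were assigned by heading. A total of 6 headings stood over 2 columns each, which were averaged on the log scale when both were kept. Libraries whose Ddx3y, Meg3 or Txnip went against the heading were left out, not moved. Label-matched libraries gave 23 values in 14 groups. The limma package (3.58.1, R 4.3.3) fitted group means to log2(RPKM + 1) with a mean-variance trend, for the 14670 genes that reached 1 RPKM in 2 or more values, and a Benjamini-Hochberg adjusted p under 0.05 was the threshold. A group of 1 line was assumed to vary like the others. The fit was tested on simulated data. Values of one line over conditions were treated as independent (9 residual degrees of freedom). A fit with line as a replicate block, whose pairing comes from shared cell lines, had a correlation of 0.195. Alternatives were other libraries, pseudocounts, filters, scalings, left-out lines and, added after seeing the data, removal of a transcript length trend and the libraries on 1 side of the Rps28 split. The WT day 4 glucose and the WT HG day comparisons were also added after seeing the data.

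The members, gene lists and tests were chosen with earlier results of these data known. In each comparison up to 6 members with the largest rise and up to 6 with the largest fall past the threshold are named. The rule also names extremes of level by complex and of SD (3 each way), isoform genes, core subunits and up to 4 genes per list with the smallest p on LG day 12. A gene that the rule names is not reported here. Promoter windows and motif shares come from RefSeq (GRCm38.p6). Overlaps and pseudogenes were looked up in GENCODE.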

Additional observations from a re-analysis of the deposited data

Results flagged for a closer look

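Of the members, 2 changed differently between genotypes from LG day 2 to day 12 by a test of the difference itself. Ndufa6, an accessory subunit of complex I, differed by -0.86 (log2, SE 0.19, limma adjusted p = 0.0126), with 84.6 ± 4.00 RPKM (SD, n = 2 lines) on day 2 and 127 RPKM on day 12 in WT, and with 102 and 115 RPKM on day 2 and 78.4 and 102 RPKM on day 12 in DKO. Ndufaf4, an assembly factor of complex I, differed by 0.82 (SE 0.22, limma adjusted p = 0.0254), falling in W1 to 4.80 RPKM on day 12 while K1 and K3 read 7.92 and 10.01 RPKM. Both calls were lost without W2, with the length trend removed and with all libraries as labelled (-0.95 for Ndufa6, adjusted p = 0.164, and 0.55 for Ndufaf4, adjusted p = 0.683), and the difference for Ndufaf4 also missed the threshold under median-of-ratios scaling (0.69, adjusted p = 0.0862) and quantile scaling (0.73, adjusted p = 0.0770). With the length trend removed the test still called members, lower in complex I and higher among assembly factors and relatives. The day 2 and day 12 libraries lie in different Rps28 sets in both genotypes.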

How the results depend on the processing

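Counts of called members moved by over 1.5 times under these alternatives. As labelled, they were 0 on LG day 8, LG day 12 and HG day 8, 1 on HG day 12, 0 for WT days, 16 for DKO days, 1 for glucose in each genotype, 0 for genotype by day, 0 for WT day 4 and 2 for WT HG days. With libraries matched by Prkaa2 and Txnip in place of the line genes, they were 1 on LG day 8, 3 on LG day 12, 0 for WT glucose, 1 for genotype by day and 0 for WT day 4. Median-of-ratios scaling gave 3 on LG day 8, 3 on HG day 8, 65 for DKO days and 6 for genotype by day, and quantile scaling 2 on HG day 8, 5 for DKO glucose and 7 for genotype by day. With line as a replicate block there were 2 on HG day 8, 6 for genotype by day and 24 for WT day 4, and the replicate block changed no other count by that much and no named call. Libraries low in Rps28 gave 3 on LG day 8, 5 on HG day 12, 1 for DKO glucose and 0 for WT day 4, with fewer samples in the fit. Removing the length trend gave 3 on LG day 8, 3 on HG day 8 and 27 for DKO days.

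Leaving out 1 line at a time gave 0 to 2 calls on LG day 4, 0 to 19 on LG day 8, 1 to 39 on LG day 12, 0 to 20 on HG day 8, 0 to 30 on HG day 12, 19 to 51 for WT days, 29 to 53 for DKO days, 0 to 11 for WT glucose, 1 to 6 for DKO glucose, 0 to 26 for genotype by day, 0 to 30 for WT day 4 and 3 to 39 for WT HG days. The lowest counts came without W1 or W2 (on LG day 4 also without K3) and the highest without K1 or K3, and the cause was not tested. Shares of all genes called are not given here for left-out lines, other scalings or the removed length trend. The counts under these alternatives therefore do not set members apart from other genes. Comparisons on late LG could not be fitted without W1, nor those on late HG without K3, since an arm was then empty, and each Rps28 set holds part of the comparisons.

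Of 67 pairs of a named gene and a comparison, the direction changed as labelled for 7: Atp5h (-0.25), Ndufaf1 (-0.019) and Ndufaf6 (-0.095) on LG day 12, Cox4i2 (-0.077) and Uqcr11 (0.22) on HG day 12, and Atp5s (0.15) and Cox6b2 (0.38) for WT glucose. Matching by Prkaa2 and Txnip changed it for 2, Cox4i2 (-0.077) and Uqcr11 (0.22) on HG day 12. No other alternative changed the direction of these pairs. The calls past the threshold numbered 9 as labelled, 65 with a pseudocount of 0.1, 62 without a filter, 54 with median-of-ratios scaling, 57 with quantile scaling, 55 with the length trend removed, 30 with matching by Prkaa2 and Txnip and 17 without W2. Without W1, 9 were kept and 30 lost, and in libraries low in Rps28 26 were kept and 23 lost. Depth limits the lowest members: 1 to 85 reads stood behind a value of Cox4i2, 3 to 19 behind Atp5g2 and 2 to 42 behind Atp5l.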

Other observations

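The single label-matched ESC library, of K1 in HG, enters no comparison. The chain made up 2.36% of its RPKM sum. Ndufaf4 read 7.90 RPKM, Ndufaf2 24.7 RPKM, Cyc1 162 RPKM, Atp5b 784 RPKM, Cox4i2 2.10 RPKM and Ndufa4l2 8.72 RPKM, beside 311 RPKM of Pou5f1. It lies in the set low in Rps28, at 2.97 RPKM. In the 18 libraries left out for their labels, the chain's share of the RPKM sum ran from 2.08% to 3.01% with a median of 2.69%, and Cox6b2 made up 6.39% to 39.4% of Cox6b transcript.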
